A study of Rattus norvegicus with 3 samples.

Results

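The 8 genes described here encode 4 secreted ligands (Bmp4, Bmp2, Fgf7 and Fgf10) and 4 cell-surface receptors (Bmpr1a, Bmpr2, Fgfr1 and Fgfr2) of the bone morphogenetic protein (BMP) and fibroblast growth factor (FGF) families. They were chosen by name, as signals by which connective tissue can support the epithelium of the thymus, and all 8 were found among the 34034 features of the stromal count table. The question was which labels of the stromal library held the ligands and which held the receptors. Each captured RNA molecule carries a barcode, the unique molecular identifier (UMI), so that it is counted once. Levels are UMIs of a gene per 1000000 UMIs of a label (CPM), and they are compared between labels for 1 gene at a time, never between genes.

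The thymus came from rats of the inbred Lewis strain at 8 weeks of age, with no treatment named. Stromal cells were released with Liberase TH and DNase I, and cells without CD45, the surface protein of blood-derived cells, were enriched on magnetic columns and by flow sorting. Thymocytes, the T cell precursors of the organ, came from a separate digestion that used collagenase D with DNase I. Each kind of cell gave 1 droplet library, and how many animals each held is not given in the labels, so no test was possible. All intervals are 95% intervals for counting error only.

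BMP ligands bind complexes of a type I receptor such as BMPR1A and a type II receptor such as BMPR2, which then phosphorylate SMAD proteins and switch on genes such as those of the ID family. FGF7 and FGF10 belong to the FGF7 subfamily, whose main receptor is the IIIb splice form of FGFR2 on epithelia, and both are known as mesenchymal growth factors for epithelial organs. In the thymus, mesenchymal BMP4 and FGF10 are known to act on the growth of the epithelial rudiment, and FGF7 is known to enlarge the epithelial compartment when given to animals. Counts per gene, as used here, do not tell splice forms apart.

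Promoters are shown for the 3 ligands that had the same highest label and for the receptor with the largest epithelial excess, as the 250 bases upstream of the RefSeq gene start in build GRCr8, written 5′ to 3′ on the strand of the gene. RefSeq promoters were matched for 6 of the 8 genes, and Bmp2 and Fgfr1 were not matched. Capitals mark TATAAA (the TATA box), GGGCGG (the GC box) and CACGTG (the E-box), each searched on both strands with overlaps counted.
Bmp4 (chr15:22101934-22102183, minus strand): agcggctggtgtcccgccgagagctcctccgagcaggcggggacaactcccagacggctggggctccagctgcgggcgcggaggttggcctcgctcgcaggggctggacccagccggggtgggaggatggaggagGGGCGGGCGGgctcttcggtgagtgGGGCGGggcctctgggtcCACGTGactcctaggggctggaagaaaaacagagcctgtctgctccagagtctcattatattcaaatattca
Fgf7 (chr3:133735377-133735626, plus strand): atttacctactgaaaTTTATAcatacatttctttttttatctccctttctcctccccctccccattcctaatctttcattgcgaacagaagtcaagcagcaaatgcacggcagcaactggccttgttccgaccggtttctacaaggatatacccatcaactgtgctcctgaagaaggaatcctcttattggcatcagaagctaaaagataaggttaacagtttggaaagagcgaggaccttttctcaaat
Fgf10 (chr2:52533689-52533938, plus strand): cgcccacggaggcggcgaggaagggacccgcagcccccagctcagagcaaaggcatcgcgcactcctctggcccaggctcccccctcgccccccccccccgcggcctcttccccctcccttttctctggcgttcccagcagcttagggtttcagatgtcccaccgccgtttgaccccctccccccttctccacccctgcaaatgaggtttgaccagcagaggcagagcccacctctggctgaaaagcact
Fgfr2 (chr1:194280915-194281164, minus strand): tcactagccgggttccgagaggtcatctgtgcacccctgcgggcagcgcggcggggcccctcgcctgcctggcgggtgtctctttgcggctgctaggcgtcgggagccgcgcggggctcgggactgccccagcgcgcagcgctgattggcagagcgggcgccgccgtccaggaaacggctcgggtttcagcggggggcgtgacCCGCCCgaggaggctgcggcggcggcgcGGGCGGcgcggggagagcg

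The Bmp4 promoter held 3 GGGCGG matches, of which 2 overlap, and 1 CACGTG. The Fgfr2 promoter held 2 GGGCGG matches, and the Fgf7 promoter held 1 TATAAA. That match lay on the opposite strand (printed as TTTATA), near the end of the window farthest from the gene start. It is a match of letters only and was not tested as a TATA box. No match to these letters lay in the Fgf10 window. Among 33469 promoters of the same length, 30.5% held GGGCGG, 12.9% held TATAAA and 5.59% held CACGTG. GC content was 66.4% for Bmp4, 67.2% for Fgf10 and 76.8% for Fgfr2, against 41.6% for Fgf7 and a median of 51.2% over all promoters. The Bmp4 and Fgf10 windows were thus close in GC content and the Fgf7 window was lower, and no match was shared among the 3 ligands.

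Of 16160 barcodes in the stromal library, the authors annotated 13226, with a median of 9087.5 UMIs per annotated cell (range 621 to 55374). The 8216 mesenchymal cells carried the labels TMC1 to TMC4 and capFb, and the 2304 epithelial cells carried labels that begin with TEC or TEPC. Of the 29 labels, 24 had at least 20 cells and are compared. The 6 mesenchymal markers (Pdgfra, Col1a1, Col1a2, Dcn, Lum, Col3a1) summed to between 8923 CPM in TMC4 and 55306 CPM in capFb, and the 7 epithelial markers summed to 8949 CPM in the epithelial class and 49.2 CPM in the mesenchymal class. Mesenchymal RNA was also counted outside mesenchyme, at 4177 CPM of those 6 markers in the epithelial class. It was high in the authors' clusters TEC-c (255 cells, Dcn at 7758 CPM) and Endo-2 (243 cells, 6591 CPM), while the largest epithelial cluster, TEC-b (1388 cells), had Dcn at 282 CPM. The aaTEC2 label (29 cells) went against its name, with Epcam at 255 CPM and Dcn at 10552 CPM, as did the 72 cells labelled cTEC in cluster TEC-a, with Epcam at 71.5 CPM. Together these clusters and aaTEC2 held 691 cells, and class ratios, calls and the endothelial and epithelial levels that moved most are also given without them. Of the annotated barcodes, 28 occurred in both libraries, which is 0.212% of the annotated stromal cells.

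Pooled mesenchyme held more of all 4 ligands than pooled epithelium, as well as more Fgfr1, while epithelium held 25.1-fold more Fgfr2. The mesenchymal level was 157 CPM of Bmp4 against 43.3 CPM in epithelium, a ratio of 3.64 (3.43 to 3.86). Bmp2 stood at 21.6 against 4.49 CPM, a ratio of 4.81 (4.02 to 5.79). Fgf7 stood at 89.0 against 9.81 CPM, a ratio of 9.08 (8.06 to 10.3), and Fgf10 at 103 against 11.8 CPM, a ratio of 8.70 (7.81 to 9.73). The FGF ligands thus had the larger ratios of the 4.

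Among the receptors, Fgfr1 stood at 304 CPM in mesenchyme and 43.3 CPM in epithelium, a ratio of 7.01 (6.63 to 7.43). Fgfr2 went the other way, at 7.94 against 199 CPM. The BMP receptors lay near parity, with Bmpr1a at 95.1 against 141 CPM, a ratio of 0.675 (0.649 to 0.701), and Bmpr2 at 204 against 184 CPM, a ratio of 1.11 (1.07 to 1.14). In all, 5 of the 8 genes were at least 3-fold higher in mesenchyme, a size reached by 10.3% of the 18256 genes tested (those with at least 20 UMIs in the higher class). Only Fgfr2 was at least 3-fold higher in epithelium, a size reached by 17.4% of them. With every label weighted equally the Bmp2 ratio fell under 3-fold, to 2.14. Without epithelial cells that had a Pdgfra UMI and mesenchymal cells that had an Epcam UMI, the ratios were 5.53 for Bmp4, 11.9 for Bmp2, 44.2 for Fgf7, 37.3 for Fgf10 and 21.3 for Fgfr1. Without the 691 cells named above they were 4.95, 7.07, 20.7, 28.5 and 15.6 for these 5 genes. Bmpr1a then had a ratio of 0.641 and Bmpr2 of 1.10, and Fgfr2 was 27.2-fold higher in epithelium.

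**Figure D1:**
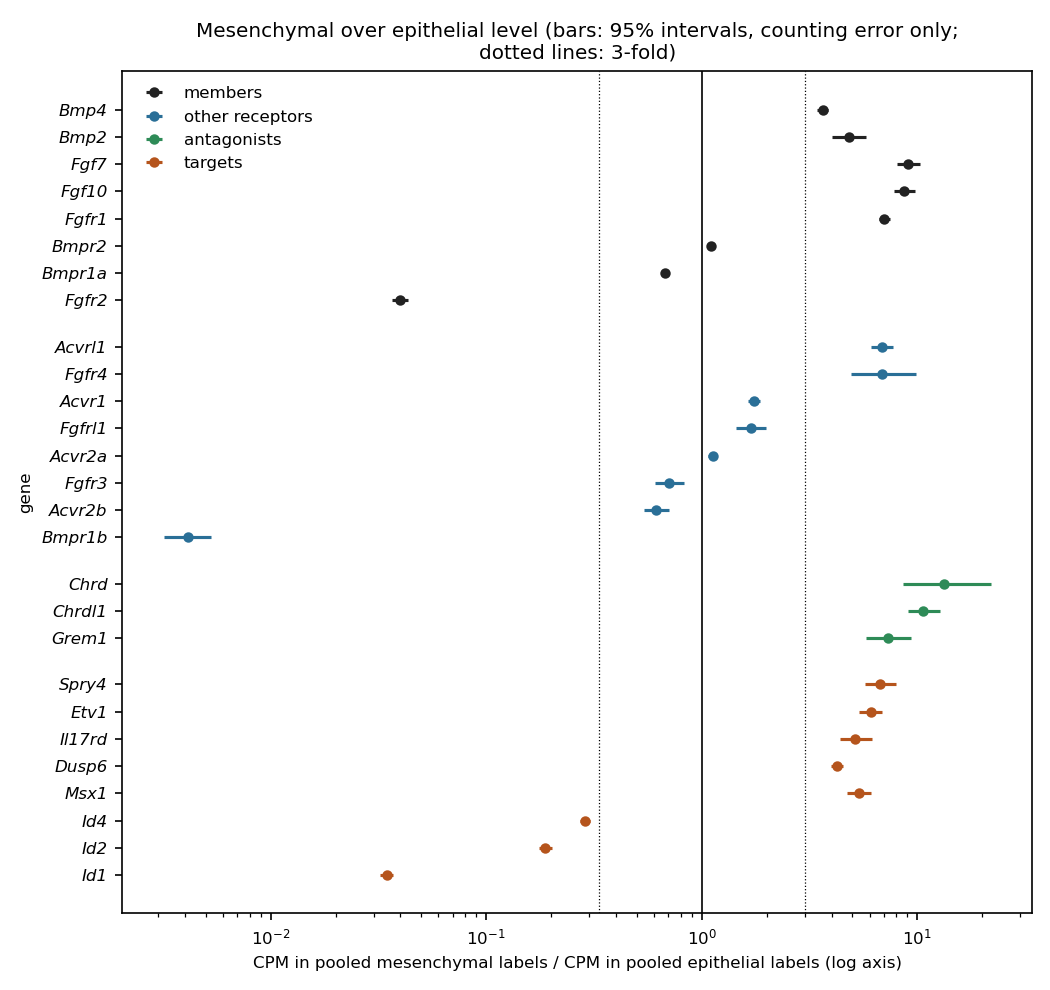
Ratio of CPM in pooled mesenchymal labels to CPM in pooled epithelial labels on a log axis for the 8 genes and other genes of both pathways, with 95% intervals for counting error only and dotted lines at 3-fold. Fgfr2, Bmpr1b and Id1 lie far to the epithelial side, while Bmpr1a and Bmpr2 lie close to 1.

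As a share of all molecules counted, mesenchyme held 85.0% of Bmp4 UMIs, 82.1% of Bmp2, 90.9% of Fgf7 and 93.0% of Fgf10. It made up 62.1% of the annotated cells and 60.0% of their UMIs, so the shares are set partly by the makeup of the sorted library. Epithelium, with 17.4% of the cells, held 86.1% of Fgfr2 UMIs. Fgfr1 was placed like the ligands, with 88.8% of its UMIs in mesenchyme. Bmpr1a and Bmpr2 were more spread, with 60.4% and 62.2% of UMIs in mesenchyme, close to its share of all UMIs.

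Bmp4 was highest in TMC2, at 292 CPM (285 to 298), with a UMI in 75.6% of its 3080 cells. It stood at 159 CPM in TMC1, 84.3 CPM in TMC3, 68.2 CPM in capFb and 36.2 CPM in TMC4. TMC2 was 1.83-fold above TMC1 (1.75 to 1.92) and 8.07-fold above TMC4 (7.31 to 8.92), so the 5 mesenchymal labels did not share a common level. The label in second place was MEC, at 199 CPM (163 to 241) on 48 cells, with a UMI in 75.0% of them. MEC also had the highest sum of 3 mesothelial markers (Msln, Upk3b and Lrrn4), 5089 CPM. Beside these it held 16929 CPM of the 6 mesenchymal markers and 717 CPM of the 7 epithelial markers. Of the 87 cells labelled MEC or nmSC, 59 lay in cluster TEC-a, 18 in Endo-2 and 8 in TEC-c. Neither label is therefore compared without the 691 cells named above. MEC had 4 Fgf7 UMIs, 3 Fgf10 UMIs and 0 Bmp2 UMIs, so that of the ligands it held Bmp4 almost alone.

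The label nmSC (39 cells) had Bmp4 at 138 CPM, Fgf7 at 74.1 CPM and Fgf10 at 52.9 CPM, beside 21281 CPM of the 6 mesenchymal markers.

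As a background, the 411 cells labelled Thymocyte in the stromal library, which should lack connective-tissue genes, had Dcn at 5588 CPM and Bmp4 at 53.0 CPM, with a Bmp4 UMI in 9.49% of cells at a median depth of 2648 UMIs. TMC2 had a median depth of 8269.5 UMIs. With every cell thinned to 1000 UMIs, which left out 83 shallower cells, the share of cells with a Bmp4 UMI was 23.2% in TMC2 and 1.81% in the Thymocyte label. A second label that should lack these genes is Myeloid (505 cells, median depth 9510 UMIs), with Dcn at 1207 CPM, Bmp4 at 13.4 CPM and a Bmp4 UMI in 6.34% of cells, or 1.39% after thinning. TMC4, at 36.2 CPM, lay between both backgrounds, and 2.96% of its cells had a Bmp4 UMI after thinning.

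Fgf10 had the steepest order among the mesenchymal labels. It reached 180 CPM (175 to 186) in TMC2, 127 CPM in TMC1, 64.2 CPM in TMC3 and 48.8 CPM in capFb, but 4.50 CPM (3.36 to 5.90) in TMC4. TMC2 was 40.1-fold above TMC4 (30.5 to 53.8). The share of cells with a UMI was 56.4% in TMC2 and 1.84% in TMC4, where 52 UMIs lay in 23 of 1249 cells. The TMC4 value lay below the 30.9 CPM of the Thymocyte label and the 5.301 CPM of Myeloid, so it was not above background.

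Fgf7 was the flattest of the 3 ligands that peaked in TMC2. It stood at 127 CPM (123 to 131) in TMC2, 109 CPM in TMC3, 86.9 CPM in TMC1, 69.5 CPM in TMC4 and 29.4 CPM in capFb. TMC2 was 1.16-fold above TMC3 (1.09 to 1.25) and 1.83-fold above TMC4 (1.69 to 1.97), with intervals that did not reach 1. TMC4, at background for Fgf10, thus had Fgf7 above the 43.1 CPM (74 UMIs) of the Thymocyte label. The capFb value lay below that level and above the 5.63 CPM of Myeloid. The mural label vSMC/PC had 47.1 CPM of Fgf7.

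**Figure D2:**
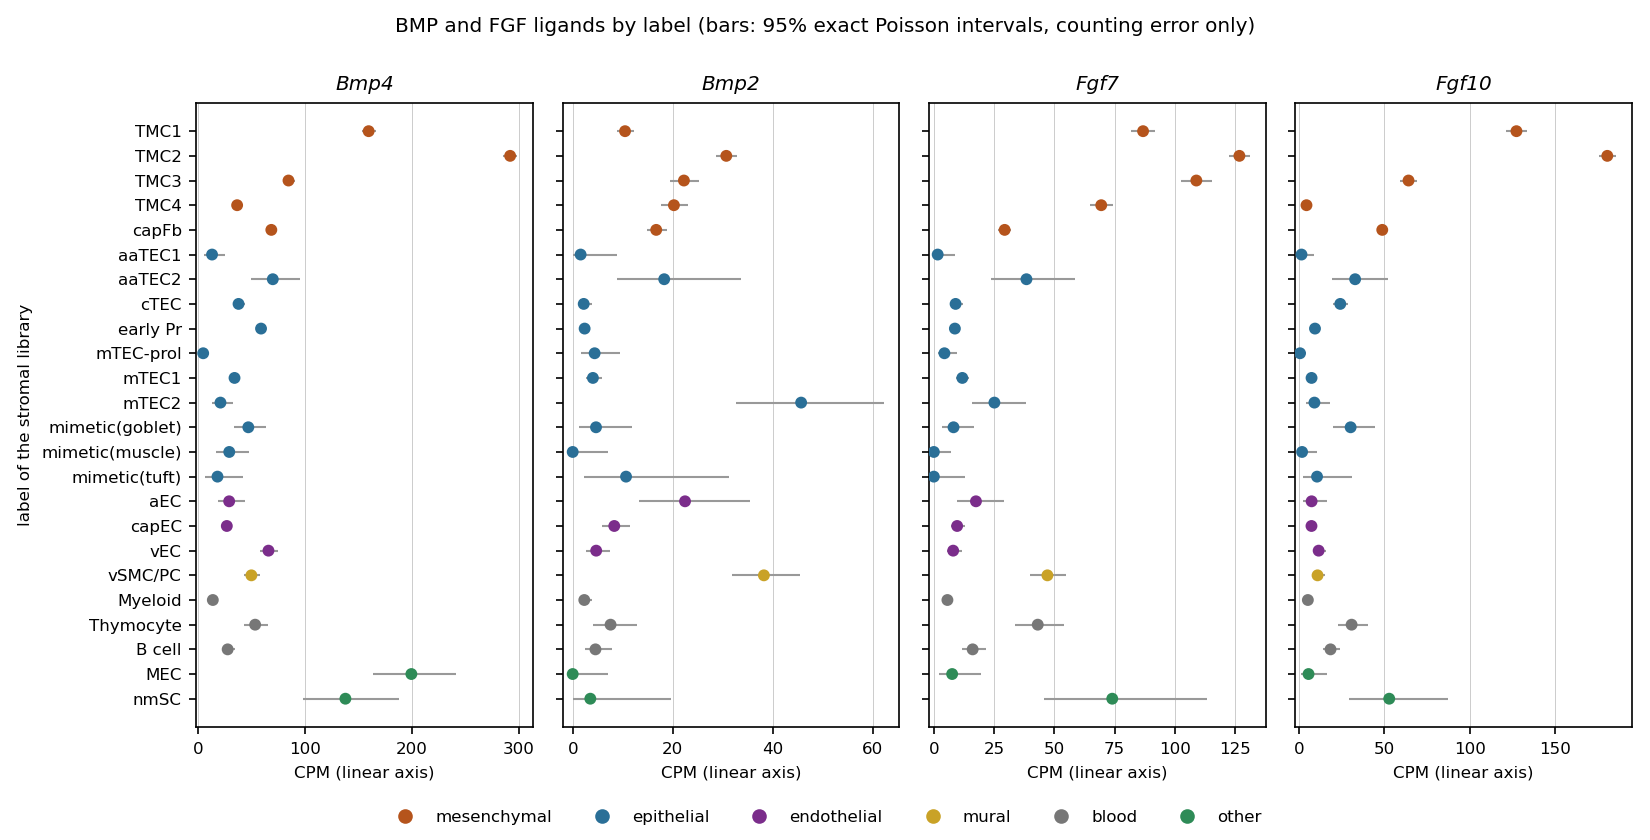
CPM of the 4 ligands in each stromal label of at least 20 cells, coloured by class, with 95% exact Poisson intervals on linear axes. TMC2 is highest for Bmp4, Fgf7 and Fgf10, TMC4 is near 0 for Fgf10 alone of those 3, and mTEC2 and vSMC/PC are highest for Bmp2.

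Between TMC2 and TMC4, a pair chosen after the levels were seen, 3 of the 8 genes were at least 3-fold higher in TMC2 (Bmp4, Fgf10 and Fgfr1). Over the 14579 genes tested in that pair, 7.75% reached this size. Bmpr1a lay the other way, at 90.3 CPM in TMC2 and 136 CPM in TMC4, a ratio of 0.665 (0.624 to 0.709).

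Bmp2 was the sparsest ligand and followed another order. Its highest value was 45.7 CPM (32.7 to 62.2) in mTEC2, medullary epithelial cells, but this rested on 40 UMIs in 14 of 61 cells, of which 1 cell held 15. The mural label vSMC/PC came next at 38.2 CPM (31.9 to 45.4), and the interval of the ratio between them, 0.816 to 1.72, included 1. TMC2 followed at 30.7 CPM, aEC at 22.5 (16.2 on 7 UMIs without Endo-2), TMC3 at 22.2 and TMC4 at 20.2. The 13 mTEC2 cells with a Pdgfra UMI had 131 CPM of Bmp2 and 6321 CPM of Dcn, and the 48 without had 19.4 CPM (10.3 to 33.2) and 166 CPM. Without cells that held a marker of the other class, the ratio of mTEC2 to the highest other label was 0.508, so that mTEC2 no longer led. The part of other cells' RNA in the mTEC2 value was not tested. In mTEC2 cells with a Pdgfra UMI, the 131 CPM of Bmp2 (86.3 to 191) rested on 27 UMIs, 15 of them in 1 cell. The mesenchymal labels had 10.5 to 30.7 CPM.

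Cells with more than 1 ligand were most common in TMC2. All 3 of Bmp4, Fgf7 and Fgf10 had a UMI in 24.7% of TMC2 cells (762 of 3080), 10.1% of TMC1, 8.07% of TMC3, 4.49% of capFb and 0.320% of TMC4 cells. None of the 3 had a UMI in 6.10% of TMC2 cells and in 54.0% of TMC4 cells. Taken singly, Bmp4, Fgf7 and Fgf10 had a UMI in 75.6%, 53.9% and 56.4% of TMC2 cells. Whether the ligands fell in the same cells beyond these separate shares was not tested. Median depth per cell differed less, from 8143 UMIs in TMC3 to 11378.5 UMIs in capFb.

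**Figure D3:**
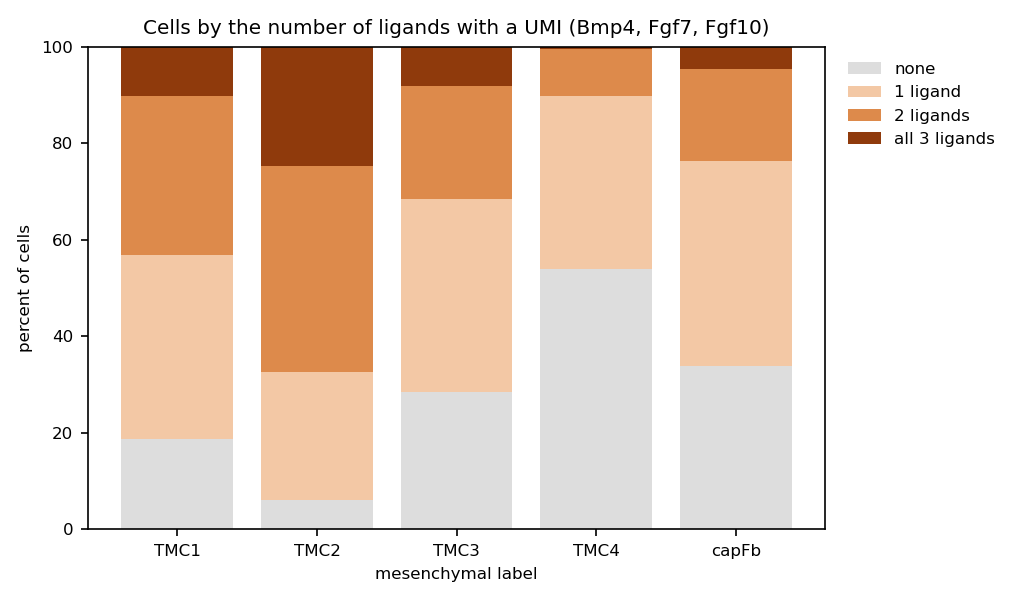
Percent of cells in each mesenchymal label with a UMI for none, 1, 2 or all 3 of Bmp4, Fgf7 and Fgf10, as stacked bars from 0 to 100%. TMC2 has the largest segment with all 3 ligands (24.7%) and TMC4 the largest with none (54.0%).

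Low ligand levels were also counted in epithelium, and Bmp4 behaved there unlike the FGF ligands. In the 867 early Pr cells without a Pdgfra UMI, Bmp4 stood at 44.8 CPM (40.6 to 49.3) on 422 UMIs, while Fgf7 stood at 1.38 CPM (0.735 to 2.36) and Fgf10 at 0.425 CPM (0.116 to 1.09). The 151 early Pr cells with a Pdgfra UMI had 106, 34.1 and 40.7 CPM of the 3 genes. Fgf7 and Fgf10 in early Pr thus lay almost wholly in cells that also held a mesenchymal marker, and Bmp4 did not.

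The same contrast was seen when each ligand was counted relative to the 6 mesenchymal markers. In the early Pr cells of cluster TEC-b there were 69.9 Bmp4 UMIs (63.5 to 76.8) per 1000 UMIs of those markers, against 1.23 in capFb to 7.42 in TMC2. For Fgf7 the early Pr value was 4.34 (2.86 to 6.31), inside the range of 0.53 in capFb to 7.79 in TMC4. For Fgf10 it was 3.05 (1.84 to 4.77), against 0.50 in TMC4 to 4.59 in TMC2. The Bmp4 UMIs of early Pr cells in TEC-b lay in 278 of 878 cells, with at most 6 in 1 cell.

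Epithelial Bmp4 was not even across subsets. Without Pdgfra-bearing cells it stood at 25.4 CPM (20.6 to 31.0) in cTEC, the cortical epithelial label, at 13.5 CPM (10.5 to 17.0) in mTEC1 and at 2.99 CPM (2 UMIs) in mTEC2. The background labels, both with more Dcn than these cells, had 53.0 CPM of Bmp4 (Thymocyte) and 13.4 CPM (Myeloid). Early Pr at 44.8 CPM and cTEC lay between them, mTEC1 lay at the Myeloid level, and mTEC2 lay below both. Dcn was 5588 CPM in Thymocyte and 1207 CPM in Myeloid, against 158 to 186 CPM in these epithelial cells. The Bmp4 levels were thus not matched for mesenchymal RNA and do not place early Pr at background. Fgf10 in cTEC cells without a Pdgfra UMI was 13.2 CPM on 51 UMIs, above early Pr and mTEC1, but the 72 cTEC-labelled cells of cluster TEC-a, whose Epcam was low, held 43 Fgf10 UMIs in 9 cells. In cTEC cells of cluster TEC-b, Fgf10 was 2.65 CPM on 9 UMIs.

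**Figure D4:**
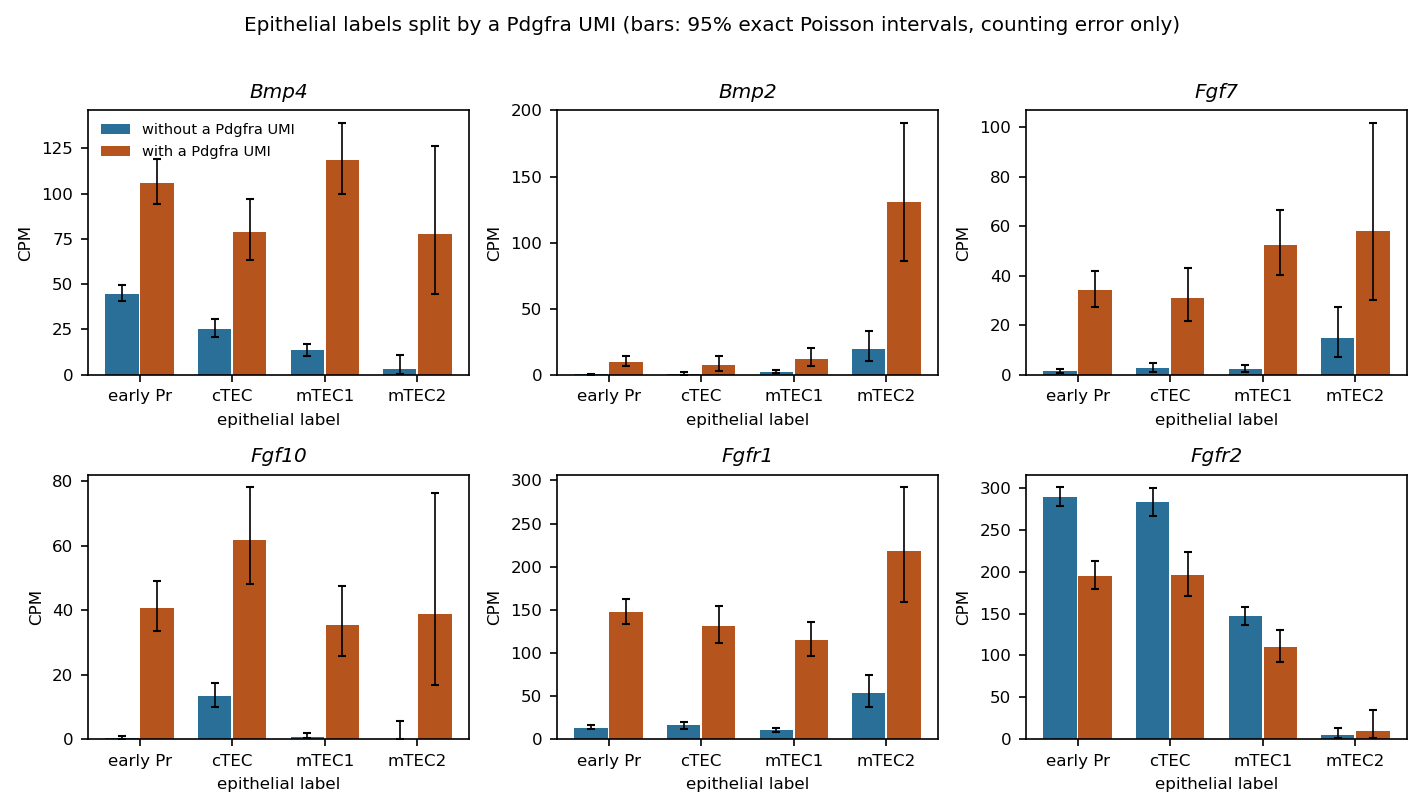
CPM of 6 of the genes in 4 epithelial labels, split into cells without (blue) and with (orange) a Pdgfra UMI, with 95% exact Poisson intervals and bars from 0. Fgf7 and Fgf10 nearly vanish in early Pr and mTEC1 cells without Pdgfra, Bmp4 stays at 44.8 CPM in early Pr, and Fgfr2 is higher without Pdgfra in early Pr, cTEC and mTEC1.

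Endothelium also held Bmp4, mainly in the vEC label. In cluster Endo-1, where mesenchymal markers were low, vEC had 62.0 CPM of Bmp4 on 183 UMIs in 102 of 284 cells, and capEC had 11.3 CPM on 40 UMIs. Per 1000 mesenchymal marker UMIs these are 103 (88.2 to 118) in vEC and 16.8 (12.0 to 22.9) in capEC, again above the 7.42 of TMC2. Over all their cells vEC was 2.47-fold above capEC (1.97 to 3.11). In Endo-1, the capEC level lay below the 13.4 CPM of Myeloid and the vEC level above the 53.0 CPM of the Thymocyte label. Fgf7 and Fgf10 in cluster Endo-1 stood at 2.31 and 1.88 CPM.

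Fgfr2, the receptor for FGF7 and FGF10 on epithelia, was highest in early Pr at 269 CPM (260 to 278), with a UMI in 89.1% of 1018 cells. The cTEC label had 263 CPM (249 to 278), and the ratio of the pair, 1.02 (0.956 to 1.09), included 1. In medulla the level was lower, at 140 CPM (131 to 149) in mTEC1 and 113 CPM (96.2 to 133) in mTEC-prol, and it reached 5.71 CPM (5 UMIs in 61 cells) in mTEC2. Early Pr was 1.93-fold above mTEC1 (1.79 to 2.08) and 47.0-fold above mTEC2 (20.1 to 145). The goblet, tuft and muscle mimetic labels and aaTEC1, of 25 to 55 cells each, had 15.4 to 53.4 CPM. With clusters TEC-a, TEC-c and Endo-2 left out, cTEC stood above early Pr, at a ratio of early Pr to cTEC of 0.880. Without the 691 cells named above, cTEC had 334 CPM (315 to 354) and early Pr 294 CPM (283 to 305). The order of the leading pair thus depends on the cells kept.

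Mesenchymal labels held little Fgfr2, from 3.52 CPM in TMC2 and 3.84 CPM in capFb to 13.5 CPM in TMC1 and 19.7 CPM (17.3 to 22.5) in TMC4. TMC4, with the least Fgf10, had the most Fgfr2 of the 5, and a UMI in 12.9% of its cells against 2.63% of TMC2 cells. TMC4 epithelial markers summed to 51.2 CPM, as in TMC2 at 51.3 CPM.

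Between early Pr and mTEC2, also a pair chosen after the levels were seen, Fgfr2 was the only member of the 8 at least 3-fold higher in early Pr, a size reached by 7.31% of 14034 genes. The other receptors fell less between them, Bmpr1a from 150 to 121 CPM and Bmpr2 from 210 to 103 CPM. Fgfr1 was higher in mTEC2, at 92.5 against 43.5 CPM, and at 53.8 against 13.4 CPM in cells without a Pdgfra UMI.

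Fgfr1, which binds many FGFs, had its highest level in capFb at 443 CPM (433 to 454), with a UMI in 97.4% of 1358 cells. TMC2 followed at 346 CPM, TMC1 at 295, TMC3 at 217 and TMC4 at 101 CPM. The order among mesenchymal labels was thus unlike that of the ligands, since capFb was lowest for Fgf7 and next to lowest for Bmp4. In early Pr cells without a Pdgfra UMI, Fgfr1 was 13.4 CPM (11.1 to 15.9), and in those with one 147 CPM. Of the endothelial labels, aEC had 154 CPM, capEC 95.7 and vEC 79.1 CPM. In their Endo-1 cells alone the levels were 83.3 CPM (58.4 to 115) in aEC, 74.6 CPM in capEC and 59.6 CPM in vEC, so the aEC value was lower without Endo-2 and its interval overlapped that of capEC.

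**Figure D5:**
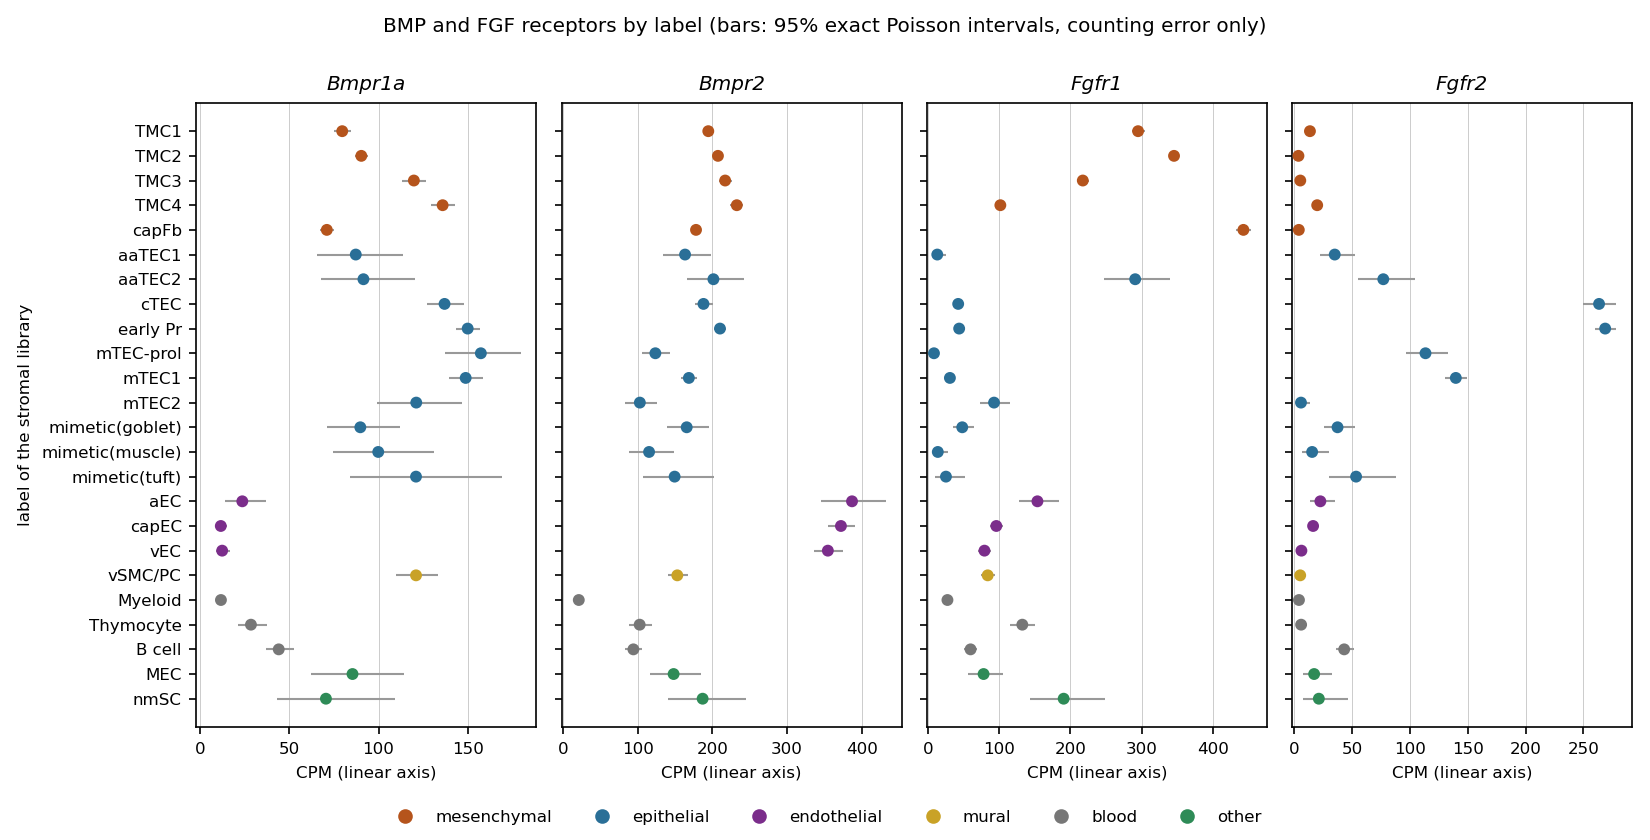
CPM of the 4 receptors in each stromal label of at least 20 cells, coloured by class, with 95% exact Poisson intervals on linear axes. Bmpr2 is highest in the 3 endothelial labels, Fgfr1 in capFb, and Fgfr2 in early Pr and cTEC, with mTEC2 near 0.

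Bmpr1a, a type I BMP receptor, was counted in epithelial, mesenchymal and mural labels and was low in endothelium. It stood at 157 CPM (137 to 180) in mTEC-prol, 150 in early Pr, 149 in mTEC1, 137 in cTEC, 136 in TMC4, 121 in mTEC2 and 121 in vSMC/PC, and these neighbours had overlapping intervals. Of the other mesenchymal labels, TMC3 at 120 CPM was close to mTEC2 and vSMC/PC. Lower values were seen in TMC2 at 90.3, TMC1 at 79.7 and capFb at 71.0 CPM. The 3 endothelial labels had 11.7 to 23.7 CPM, and in cluster Endo-1 the level was 4.19 CPM.

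Bmpr2, the type II receptor, showed the opposite endothelial pattern. It was highest in aEC at 387 CPM (345 to 433), capEC at 372 and vEC at 355 CPM, which did not differ beyond counting error. TMC4 came next at 233 CPM (224 to 242), and vEC was 1.52-fold above it (1.43 to 1.63). The other mesenchymal labels had 178 to 217 CPM, and early Pr had 210 CPM, so that mesenchyme and epithelium overlapped. Myeloid cells were lowest at 21.0 CPM.

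No member had a label at least 3-fold above the next, which 6.88% of 13149 genes did. In single epithelial cells, Bmpr1a, Bmpr2 and Fgfr2 had a UMI together in 59.4% of early Pr, 52.2% of cTEC, 47.9% of mTEC1, 39.5% of mTEC-prol and 4.92% of mTEC2 cells (3 of 61). Without the 691 cells named above the shares were 58.2% in early Pr, 61.4% in cTEC (194 of 316) and 49.0% in mTEC1, so cTEC then stood above early Pr, with overlapping intervals. In mTEC2 a pair of Bmpr1a and Bmpr2 without regard to Fgfr2 was seen in 37.7% of cells.

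Of the other receptors, Bmpr1b, also a type I BMP receptor, was the most epithelial. Its class levels were 202 CPM in epithelium and 0.835 CPM in mesenchyme, 242-fold apart, on 5862 and 66 UMIs. It was highest in cTEC (287 CPM), early Pr (261 CPM) and mTEC1 (154 CPM) and stood at 9.14 CPM (8 UMIs) in mTEC2, the same order of medullary labels as Fgfr2. Acvrl1, the type I receptor ALK1 known from vessels, was 6.88-fold higher in mesenchyme (72.4 against 10.5 CPM) and highest in aEC at 114 CPM. Fgfr4 was 6.85-fold higher in mesenchyme (4.90 to 9.87) and was highest in TMC4 at 40.6 CPM. Acvr1 (1.75), Acvr2a (1.12), Acvr2b (0.614), Fgfr3 (0.706) and Fgfrl1 (1.69) had ratios of mesenchyme to epithelium under 3-fold in either direction.

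Outside the 8 genes, 97 genes of the pathways were listed, 96 were in the table, and 83 had enough UMIs to be tested. Of these, 24 were at least 3-fold higher in mesenchyme and 15 in epithelium, beside 10.3% and 17.4% of all genes. Their median log2 ratio of mesenchyme to epithelium was 0.60, beside -0.18 over all genes tested. Without the 691 cells named above, 32 listed genes were higher in mesenchyme, 23 of them among the 24, and 13 in epithelium, all among the 15. Msx2 then fell under 3-fold, and Gdf5 and Fgfbp1 fell under 20 UMIs. The fold values of single listed genes given below are over all cells. The lists were chosen with earlier results of these data known.

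Of 15 BMP antagonists tested, secreted and intracellular, 6 were at least 3-fold higher in mesenchyme and 1 in epithelium, beside 10.3% and 17.4% of all genes, and 8 were under 3-fold either way. Their median log2 ratio of mesenchyme to epithelium was 1.53, beside -0.18 over all genes. Among them were Chrd (13.3-fold), Chrdl1 (10.7-fold) and Grem1 (7.33-fold), all secreted proteins that bind BMP ligands. Chrdl1 was at 101 CPM in TMC1 and 62.7 CPM in TMC2, and at 2.86 CPM in TMC4. Grem1 had the reverse order, at 81.2 CPM in TMC4 and 8.88 CPM in TMC2. Sostdc1, another secreted antagonist, was the 1 on the epithelial side, with 28 UMIs against 1 UMI.

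BMP transducers and targets divided by gene. Of 11 tested, 2 were at least 3-fold higher in mesenchyme (Msx1 and Msx2) and 4 in epithelium (Id1, Id2, Id4 and Smad9). Over all genes these shares were 10.3% and 17.4%, and Msx2 rested on 35 against 4 UMIs. The median log2 ratio of the 11 was -0.72, beside -0.18 over all genes. Id1, an inhibitor of DNA binding that BMP signals induce in many cells, stood at 350 CPM in epithelium and 12.1 CPM in mesenchyme, 29.0-fold apart. Within epithelium it was 464 CPM in early Pr, 354 in cTEC, 278 in mTEC1 and 50.3 CPM in mTEC2. It was higher still in capEC, at 622 CPM, so Id1 was not particular to epithelium. Id2 was 5.32-fold and Id4 3.48-fold higher in epithelium, and Smad9 3.84-fold, while Msx1 was 5.34-fold higher in mesenchyme.

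Of 13 FGF adaptors, targets and feedback genes tested, 4 were at least 3-fold higher in mesenchyme and 0 in epithelium, beside 10.3% and 17.4% of all genes, and 9 were under 3-fold either way. Their median log2 ratio was 1.36. Spry4 was 6.74-fold higher (37.5 against 5.56 CPM), Etv1 6.07-fold, Il17rd 5.16-fold and Dusp6 4.25-fold (145 against 34.1 CPM). Spry4 and Dusp6 had their highest values in TMC2, at 60.6 and 183 CPM.

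Of 10 other BMP-family ligands tested, Gdf10 (11.3-fold), Bmp5 (9.36-fold) and Gdf6 (42 against 1 UMI) were higher in mesenchyme, and Bmp6 (3.80-fold) and Gdf5 (20 against 3 UMIs) in epithelium. Of all genes, 10.3% were at least 3-fold higher in mesenchyme and 17.4% in epithelium. The median log2 ratio of the 10 was 0.49, beside -0.18 over all genes. Gdf10 was highest in TMC1 at 189 CPM and Bmp5 in TMC2 at 38.2 CPM. Of 12 other FGF genes tested, Fgf2 (8.65-fold), Fgf12 (7.09-fold) and Fgf18 (3.59-fold) were higher in mesenchyme, and Fgf9 (53.4-fold), Fgf21 (50.7-fold), Fgf8 (14.6-fold) and Fgf13 (4.08-fold) in epithelium. The same shares of all genes apply, and the median log2 ratio of these 12 was 0.85. Fgf9, an epithelial ligand known to signal to mesenchyme in the lung, stood at 48.0 CPM in mTEC1, 0.225 CPM in TMC2 and 49.4 CPM (26 UMIs) in MEC. Fgf12 and Fgf13 encode proteins that stay inside the cell.

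Of 14 coreceptors and binding proteins tested, 4 were at least 3-fold higher in mesenchyme (Flrt2, Gpc6, Kl and Sdc3) and 3 in epithelium (Sdc1, Sdc4 and Fgfbp1). Over all genes these shares were 10.3% and 17.4%. The median log2 ratio of the 14 was 0.07, beside -0.18 over all genes. Sdc1, a heparan sulphate proteoglycan, stood at 103 CPM in epithelium and 6.19 CPM in mesenchyme, 16.7-fold apart. Flrt2 was 4.98-fold and Gpc6 4.01-fold higher in mesenchyme.

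In the thymocyte library, the T-lineage cells held no UMI of Bmp4, Bmp2 or Fgf10 in 8376 cells, and a count of 0 limits each to 0.0483 CPM (3 counts). Fgf7 had 59 UMIs there (0.951 CPM), and Bmpr1a and Fgfr2 had 7 UMIs each. Bmp4, Bmp2 and Fgf10 were therefore not detected in thymocytes at this depth, and Fgf7 was, at a low level. Bmpr2 and Fgfr1 were detected, at 34.2 and 21.7 CPM. Fgfr1 was 32.3 CPM (29.0 to 35.9) in DN, the double-negative label, 29.8 CPM in DP-P, 16.5 CPM in DP, the double-positive label, and 3.03 CPM (1.51 to 5.42) over the mature CD4 and CD8 labels. DN was 1.96-fold above DP (1.68 to 2.29), and DP was 5.45-fold above the mature labels (3.002 to 11.02). Bmpr2 went the other way, at 25.6 CPM in DN, 34.5 in DP and 50.7 CPM in the mature labels, 1.98-fold above DN (1.64 to 2.40). Median depth was 23190 UMIs in DN and 3205.5 in DP.

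The genes most like each member were ranked by Pearson correlation of log2(CPM + 1) over the 18 labels with at least 50 cells, among 13161 genes, as a description only, since the labels share 1 library and labels of a class share cells of 1 kind. Gsta1 (0.93), Abca9 and Il17d were most like Bmp4, and Svep1 (0.94), Angptl1 and Pid1 most like Fgf10. Sgcb (0.95), Uggt2 and Tbx15 ranked first for Fgf7, and Apba1 (0.86), Pla1a and Hpse2 for Bmp2. Pard3 (0.98), Fat1 and Tead3 were most like Bmpr1a, Arhgef12 (0.97), Cdc42bpb and Kif1c most like Bmpr2, and Rnase4 (0.96), Gpx3 and Fap most like Fgfr1. Megf6 (0.94) and Lamb3 were most like Fgfr2. Among the members themselves, Bmp4 and Fgf10 were the most alike pair at 0.89, and Fgfr2 had negative values with all 4 ligands, from -0.34 with Bmp4 to -0.63 with Bmp2.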

How the data were processed

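The data were 1 stromal and 1 thymocyte droplet library. The values are UMI counts per gene and barcode, deposited by the authors; Cell Ranger 8.0.0 is named per the file headers. The submitters' processing notes also name the build mRatBN7.2 and Seurat 5.3.0. Published mouse data served as a reference for naming cells, per the series' design text. The gene annotation and the rule for projecting labels are not given in the sources used here. The deposited table of cells gives the percent of mitochondrial UMIs by the authors, at most 4.99% in annotated stromal cells. In the annotated cells of the thymocyte library it reached 54.2%. Doublets were not removed here and no caller was run.

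Cells took the authors' projected label, else their cluster, and labels were put in classes by name. UMIs were summed per label or class and given as CPM with exact Poisson intervals, ratios have exact conditional binomial intervals, and shares of cells have exact Clopper-Pearson intervals, all at 95%. Labels under 20 cells were not compared. A gene counted as higher when it was at least 3-fold higher on at least 20 UMIs, and a class under 3 UMIs was set to 3. With 1 sample per group no test was run, cells are not replicates and no p-value is given.

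The text names the 8 genes, the other receptors of both families, up to 4 genes per list and direction with the largest class ratio, and the 3 genes most like each member, apart from items that are not reported here. Genes and lists were chosen with earlier results of these data known. Promoters come from RefSeq, GRCr8. The stages of the thymocyte library follow the label names. Spatial tables are not used here.

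Alternatives were cells with at least 1000 UMIs, cells below the 99th percentile of their label, the mean over cells of their CPM, totals that leave out genes of mitochondria, ribosomes and haemoglobin, thinning of cells to 1000 UMIs (seed 7), cells without markers of the other class, clusters in place of labels, equal weight of labels and no UMI minimum. Leaving out clusters TEC-c and Endo-2, with or without TEC-a, or aaTEC2, was chosen after seeing the data, as was the split of epithelial labels by a Pdgfra UMI. The ratio and count rules were tested on simulated data. Scripts used pandas 2.3.3, SciPy 1.17.1 and NumPy 2.4.6 under Python 3.11.15, with figures from matplotlib 3.10.9.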

Additional observations from a re-analysis of the deposited data

Results flagged for a closer look

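The 2934 stromal barcodes without an annotation, which no comparison used, also held UMIs of all 8 genes, above the level that 3 counts allow (0.346 CPM). Together these barcodes had 8663291 UMIs, and the median barcode had 1219.5. Bmp4 stood at 30.9 CPM in them against 111 CPM in annotated cells, Bmp2 at 6.12 against 15.8, Fgf7 at 29.2 against 58.8 and Fgf10 at 23.8 against 66.4 CPM. Fgfr1 stood at 84.1 against 205 CPM and Bmpr2 at 144 against 197 CPM. Bmpr1a was close, at 95.8 against 94.4 CPM, and Fgfr2 was higher in the barcodes without an annotation, at 84.5 against 50.9 CPM. Their cell types are not given, so the values describe a mixture.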

How the results depend on the processing

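No paired analysis was possible because there was only 1 sample in a group. Of 272 values recomputed, 192 stayed within their counting interval or 1.5 times their count, 80 moved, and no member's class ratio changed side of 1. For the ratio of mesenchyme to epithelium, equal weight of labels gave 3.87 for Bmp4, 2.14 for Bmp2, 7.86 for Fgf7, 6.62 for Fgf10, 4.63 for Fgfr1, 0.825 for Bmpr1a, 1.30 for Bmpr2 and 0.0905 for Fgfr2. The mean over cells gave 4.05 for Bmp4, 6.40 for Bmp2, 13.2 for Fgf7, 13.5 for Fgf10, 9.05 for Fgfr1 and 0.0323 for Fgfr2. Thinning gave 3.32 for Bmp4, 6.46 for Bmp2, 11.4 for Fgf7, 22.8 for Fgf10, 8.12 for Fgfr1, 0.782 for Bmpr1a and 0.0338 for Fgfr2, and 9 rather than 15 listed genes higher in epithelium, with fewer genes past the UMI minimum. Leaving out 703 cells with a marker of the other class gave 5.53 for Bmp4, 11.9 for Bmp2, 44.2 for Fgf7, 37.3 for Fgf10 and 21.3 for Fgfr1. Leaving out TEC-c and Endo-2 gave 4.97, 6.93, 17.6, 18.0 and 13.4 for these 5 genes, and leaving out TEC-a as well gave 4.97, 7.01, 19.6, 27.6 and 14.6, with Bmpr1a at 0.643. Leaving out aaTEC2 gave 7.88 for Fgfr1. Cells below the 99th percentile gave 9.85 for Fgf10, clusters alone gave 3.40 for Bmp4, and totals without mitochondrial, ribosomal and haemoglobin genes gave 0.649 for Bmpr1a and 1.07 for Bmpr2. The cause was not tested. The label in first place changed for Bmpr2, whose ratio of aEC to the highest other label was 0.915 by the mean over cells and 0.879 after thinning, and for Bmpr1a, whose ratio of mTEC-prol to the highest other label was 0.905 and 0.761. Listed genes higher in mesenchyme numbered 23 to 33 and those higher in epithelium 9 to 19. Depth limits labels of few cells most, such as mTEC2 with 5 Fgfr2 UMIs.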

Other observations

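Fgf3, Fgf4, Fgf14, Fgf20 and Fgf21 had their highest value in the 61 mTEC2 cells, as did Fgf6 on 1 UMI. They are named here after their values were seen. Fgf14, which encodes a protein that stays inside the cell, was at 64.0 CPM (56 UMIs) in mTEC2 and also had 372 UMIs in mesenchyme. Fgf21 had 50 of its 93 epithelial UMIs in mTEC2, Fgf3 had 11 of 11, Fgf4 had 6 of 12 and Fgf20 had 5 of 5. Fgf21 stood at 57.1 CPM, while Fgf3, Fgf4 and Fgf20 rest on few molecules, from 5.71 CPM of Fgf20 to 12.6 CPM of Fgf3. Mesenchyme held 0 UMIs of Fgf3, Fgf4 and Fgf20 and 5 of Fgf21.

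Fgf23, an endocrine FGF known mainly from bone, was counted at 260 CPM in vEC and 178 CPM in TMC4, also named after its values were seen. Whether reads of a neighbouring gene were counted in it was not tested, since gene models of the files' build were not used here. MEC, the label with the second highest Bmp4, had the highest Fgf12 (175 CPM), Gpc3 (1323 CPM) and Flrt2 (577 CPM) of the 24 labels. These are values over all cells, and MEC is not compared without the mixed clusters. Fst, which encodes the activin and BMP antagonist follistatin, stood at 443 CPM in TMC1 and 280 CPM in TMC2, with a class ratio of 2.98.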
